A study of Caenorhabditis elegans with 24 samples.

Results

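The core of insulin/IGF signaling to the FoxO transcription factor was examined in arrested and fed larvae of the nematode Caenorhabditis elegans through the mRNA of 8 genes. The genes were taken from a list of names: daf-2 (Y55D5A.5), age-1 (B0334.8), daf-18 (T07A9.6), pdk-1 (H42K12.1), akt-1 (C12D8.10), akt-2 (F28H6.1), sgk-1 (W10G6.2) and daf-16 (R13H8.1). These are 8 of the 44968 identifiers in the count files, and all 8 were among the 19050 genes that were tested, with more than 1 CPM (counts scaled to the library total) in at least 4 libraries. The study asked what first-stage (L1) larvae do when they perceive bacteria that they cannot eat. Larvae of strain LRB269 hatched without food, after which bacteria (E. coli HB101) were or were not added, and polyadenylated RNA was sequenced from 24 libraries, 4 in each of 6 conditions.

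In IvF, larvae kept in 5 ng/mL ivermectin were given HB101 at 25 mg/mL for 1 h or 24 h, and in IvS larvae kept in the same ivermectin got no bacteria and were collected at the same times. In F, larvae without ivermectin were fed HB101 at 25 mg/mL for 1 h, and in S larvae without ivermectin stayed without bacteria and were collected at 1 h. Larvae of F and S got DMSO, the solvent of the drug, in place of ivermectin. The ivermectin concentration of 5 ng/mL is the one in the labels and in the mRNA-seq methods, while the general methods give a higher one for this strain. Larvae in all 6 conditions carried mutations in the channel genes avr-14 (vu47), avr-15 (vu227), glc-1 (pk54) and glc-3 (ok321), which make the worm resistant to ivermectin, an agonist of these glutamate-gated chloride channels. They also carried the transgene dukIs10, in which the myo-2 promoter, active in pharyngeal muscle, drives avr-15 and mCherry, and the hlh-8 promoter drives GFP. The strain was made so that the drug acts in the pharynx and stops pumping and ingestion. The paper describes the higher concentration in its general methods as the minimal dose at which the strain did not eat. Whether ingestion was fully stopped at 5 ng/mL cannot be told from the counts.

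In C. elegans, insulin-like peptides bind the receptor tyrosine kinase DAF-2. The receptor acts through AGE-1, the catalytic subunit of phosphoinositide 3-kinase, which makes the membrane lipid PIP3, and the lipid phosphatase DAF-18 removes PIP3. PDK-1 is recruited by this lipid and phosphorylates the related kinases AKT-1, AKT-2 and SGK-1. The AKT kinases phosphorylate DAF-16, the single FoxO protein of the worm, which holds it in the cytoplasm. In starved L1 larvae signaling is low, DAF-16 is nuclear, and it is required for full developmental arrest and for survival of starvation. All of this control is on proteins and lipids, and the values here are levels of the mRNAs only.

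In the WBcel235 annotation, pdk-1, akt-2 and sgk-1 lie on chromosome X, daf-16 on I, age-1 on II, daf-2 on III, daf-18 on IV and akt-1 on V. Their merged exons span 1636 bases (sgk-1) to 8296 bases (daf-2). The annotation lists 11 protein isoforms of daf-16, 6 of daf-2, 3 of akt-1, 2 each of age-1, pdk-1, akt-2 and sgk-1 and 1 of daf-18, and the counts per gene do not separate them. Exons of age-1 overlap those of B0334.10 on the other strand over 192 bases, those of daf-16 overlap a noncoding RNA over 84 bases, and those of pdk-1 and akt-1 overlap a neighbor over 15 and 8 bases. The library kit did not keep strand, so that reads in these stretches cannot be assigned to a strand.

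The files held 14498061 to 19448998 reads on genes per library with ivermectin and 8690378 to 14139935 without it. Reads outside annotated features were 4.39% to 11.3% of the aligned reads with ivermectin and 2.67% to 3.70% without it, and reads shared by several genes were 2.97% to 3.68% with it and 6.59% to 10.2% without it. The TMM factors that edgeR uses to scale libraries ran from 0.897 to 1.30 with ivermectin and from 0.620 to 0.957 without it. Every library with ivermectin thus stood apart from every library without it on depth, reads outside features and shared reads, and the labels number the 2 sets differently. Ivermectin and the set of libraries therefore cannot be told apart in any comparison across them. Replicates without ivermectin are numbered 1 to 4. Replicates with ivermectin are given letters, from A for the lowest label number to D for the highest, and values per library follow this order. Markers of larval tissues (myo-2, myo-3, elt-2, dpy-7, unc-119 and rgef-1) were detected in all 24 libraries, with a summed level of 1457 to 3965 CPM with ivermectin and 381 to 1034 CPM without it. The 6 adult and oocyte markers summed to 23.3 to 71.2 CPM with ivermectin and 64.3 to 128 CPM without it, and the 5 early embryo markers to 1.74 to 9.56 CPM and 1.34 to 10.1 CPM. Of these, vit-5 and end-1 were at 0 in 1 library each and tbx-35 was at 0 in 7.

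All 8 mRNAs were detected in every library, and their levels are given as TMM-scaled CPM. To compare genes with one another the levels were divided by exon length in kilobases. On this scale daf-16 and akt-1 had the highest means of the 8 mRNAs in every condition. In IvF at 1 h daf-16 had 86.2 ± 18.4 CPM per kb and akt-1 had 45.0 ± 7.79 (SD, n = 4), with no overlap between their libraries. The order was the other way in IvS at 1 h, where akt-1 had 114 ± 7.51 and daf-16 had 106 ± 10.3 CPM per kb, although these overlapped. In IvF at 24 h akt-1 and daf-16 had 110.2 ± 12.9 and 89.8 ± 12.6 CPM per kb, in IvS at 24 h 114 ± 20.9 and 110.5 ± 15.6, and both pairs overlapped. In F daf-16 led with 58.1 ± 5.85 CPM per kb over akt-1 with 30.9 ± 5.40, and in S akt-1 led with 138 ± 6.90 over daf-16 with 93.1 ± 12.4, in each case without overlap between these 2 genes. The third gene, akt-2, overlapped the second in both. In F akt-2 had 20.0 to 33.15 CPM per kb and akt-1 25.8 to 38.0. In S akt-2 had 71.3 to 84.9 CPM per kb and daf-16 75.9 to 103.2.

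At the lower end, age-1 was the least abundant in IvF at 1 h, in IvS at 1 h and 24 h and in S, with 12.05 ± 1.21, 14.7 ± 1.40, 15.98 ± 1.63 and 6.39 ± 2.08 CPM per kb. In the first 3 of these its libraries overlapped those of the next gene, pdk-1 in IvF at 1 h and daf-18 in IvS. In IvF at 24 h daf-18 and age-1 were lowest, with 16.2 ± 1.098 and 16.3 ± 1.22 CPM per kb, and overlapped. In F the receptor gene daf-2 was lowest, with 4.00 ± 1.29 CPM per kb. The receptor mRNA was the third of the 8 in both conditions at 24 h, the fourth in IvS at 1 h, the fifth in IvF at 1 h and the sixth in S, where its libraries overlapped those of both sgk-1 and daf-18.

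**Figure D1:**
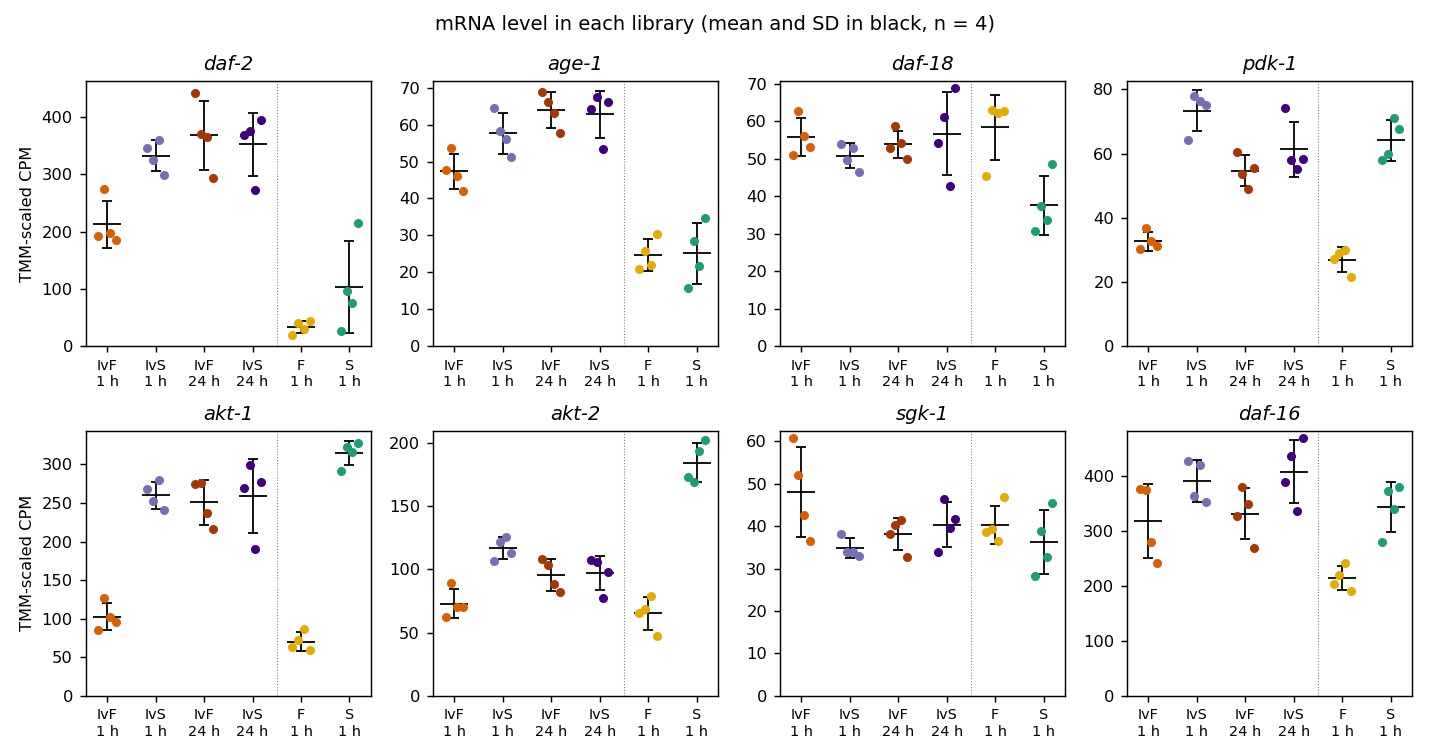
TMM-scaled CPM of each of the 8 mRNAs (vertical axes, starting at 0) in every library of the 6 conditions (horizontal axes, IvF before IvS at 1 h and 24 h, then F and S at 1 h). Points are libraries and black marks are the mean and SD (n = 4). The IvF libraries at 1 h lie below the IvS libraries at 1 h for pdk-1, akt-1, akt-2 and daf-2, and the dotted line separates libraries with ivermectin from those without.

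Perception of food without ingestion was addressed by IvF against IvS. At 1 h, mRNA of 3 of the 4 kinases that act between PIP3 and DAF-16 was lower in larvae with bacteria, that of sgk-1 being the exception. pdk-1 fell to 32.7 ± 2.99 CPM in IvF, against 73.4 ± 6.31 CPM in IvS, akt-1 fell to 103 ± 17.8 CPM, against 259.9 ± 17.1 CPM in IvS, and akt-2 fell to 72.9 ± 11.5 CPM, against 117 ± 8.60 CPM in IvS (SD, n = 4 each). Thus 3 of 8 members were lower and 0 were higher, where 2.29% of all tested genes were called lower, 3.27% higher and 5.56% in either direction. A gene was called at a Benjamini-Hochberg (BH) adjusted p below 0.05 in edgeR's quasi-likelihood (QL) test over the 19050 genes and an absolute log2 fold change above 0.5. The median log2 fold change was -0.47 over the 8 members and 0.018 over all tested genes. Libraries were of whole larvae, in which fewer cells of a type and less RNA per cell cannot be told apart.

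The PDK-1 kinase phosphorylates and so activates AKT-1, AKT-2 and SGK-1. Its mRNA was at 30.2, 36.9, 32.6 and 31.0 CPM in the IvF libraries at 1 h, against 64.1, 78.1, 76.3 and 75.1 CPM in the IvS libraries at 1 h. The 4 IvF values lay close together and all below the lowest IvS value. The log2 fold change was -1.17 (SE 0.13, edgeR QL test, BH-adjusted p = 3.54e-06), a level 2.24-fold lower in IvF.

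The largest difference of the 8 genes was in akt-1, one of the kinases that phosphorylate DAF-16. It was at 85.7, 127, 102 and 95.2 CPM in IvF at 1 h, against 268, 252, 279 and 240.3 CPM in IvS at 1 h. The highest IvF library remained well under the lowest IvS library. The log2 fold change was -1.34 (SE 0.16, edgeR QL test, BH-adjusted p = 5.55e-06), or 2.53-fold lower in IvF.

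The second AKT gene, akt-2, was at 62.0, 89.1, 70.3 and 70.1 CPM in IvF at 1 h, against 106, 122, 126 and 113 CPM in IvS at 1 h. These did not overlap either, but the difference was smaller, with a log2 fold change of -0.68 (SE 0.15, edgeR QL test, BH-adjusted p = 0.00577). In edgeR's glmTreat, which tests for a change beyond 0.5 on the log2 scale, the adjusted p for akt-2 was 0.665. For pdk-1 and akt-1 every alternative and every fit with 1 library left out kept the call.

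Because the AKT genes fell by different amounts, their balance was read within each library, where scaling cancels. There were 1.38, 1.43, 1.46 and 1.36 akt-1 reads per akt-2 read in the IvF libraries at 1 h, against 2.52, 2.07, 2.22 and 2.12 in the IvS libraries at 1 h. The ratio averaged 1.41 ± 0.04 in IvF and 2.23 ± 0.20 in IvS (SD, n = 4 each), and no IvF library reached the lowest IvS library. At 24 h it averaged 2.62 ± 0.07 in IvF and 2.65 ± 0.20 in IvS, and these overlapped. Without ivermectin it averaged 1.09 ± 0.11 in F and 1.71 ± 0.13 in S, again without overlap. These ratios are a description and carry no test.

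**Figure D2:**
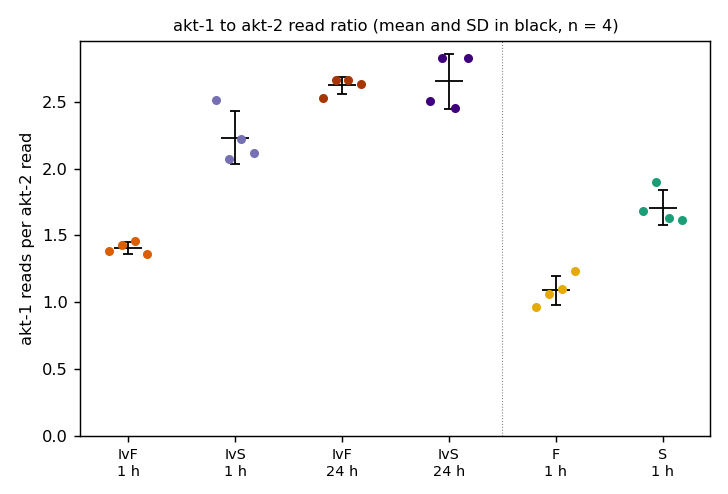
Reads of akt-1 per read of akt-2 within each library (vertical axis, starting at 0) for the 6 conditions (horizontal axis). Points are libraries and black marks are the mean and SD (n = 4). At 1 h the libraries with bacteria lie below those without, at 1.41 in IvF against 2.23 in IvS and at 1.09 in F against 1.71 in S, while IvF and IvS overlap at 24 h.

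The other 5 genes were not called in IvF against IvS at 1 h. The receptor gene daf-2 was at 192, 274, 198 and 185.2 CPM in IvF, against 346, 325, 360.0 and 299 CPM in IvS. All IvF libraries were below all IvS libraries, as they were for pdk-1, akt-1 and akt-2, so that 4 of 8 members were lower without overlap, where 6.06% of tested genes were. The log2 fold change of daf-2 was -0.65 (SE 0.36, edgeR QL test over all 24 libraries, BH-adjusted p = 0.466), and in a fit of only the compared libraries it was -0.64 with an adjusted p of 0.0143. This was the 1 alternative of 10 that called daf-2. It was called in 0 of 8 fits with 1 library left out (edgeR QL test, adjusted p 0.372 to 0.687). The fit over 24 libraries shares 1 estimate of spread among the conditions, and in S the daf-2 level ranged from 26.2 to 214 CPM. The part of this spread in the daf-2 result was not tested.

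The catalytic subunit gene age-1 had 42.1 to 53.6 CPM in IvF, against 51.3 to 64.6 CPM in IvS at 1 h, with a log2 fold change of -0.28 (95% interval -0.63 to 0.063). The opposing phosphatase gene daf-18 had 51.1 to 62.7 CPM in IvF, against 46.6 to 54.0 CPM in IvS, a log2 fold change of 0.14 (95% interval -0.17 to 0.44). Both genes overlapped between the groups. Per read of daf-18, there were 3.13 ± 0.23 reads of akt-1 and akt-2 together in IvF and 7.43 ± 0.34 in IvS (SD, n = 4 each).

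The kinase gene sgk-1 differed from its relatives in direction. It was at 60.9, 52.1, 42.7 and 36.6 CPM in IvF at 1 h, against 38.2, 33.9, 34.0 and 32.97 CPM in IvS at 1 h, with a log2 fold change of 0.47 (SE 0.15, edgeR QL test, BH-adjusted p = 0.0837), which was not called. Only the lowest IvF library overlapped the IvS libraries. Without that library, replicate D, the log2 fold change was 0.58 and was called (edgeR QL test, adjusted p = 0.0238). This was the 1 call among 8 fits with 1 library left out, which ran from 0.33 to 0.58 (adjusted p up to 0.316). None of 10 alternatives called it, at 0.45 to 0.48. Across the IvF libraries in the same order, reads outside features were 4.46%, 5.69%, 7.76% and 9.52% and the TMM factors 0.897, 1.04, 1.21 and 1.29. The part of these library properties in the spread of sgk-1 was not tested.

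For daf-16 itself, the output of the pathway, the libraries of IvF at 1 h had 376, 374, 279.7 and 242 CPM and those of IvS at 1 h 427, 363, 419 and 353 CPM. The upper IvF libraries lay among the IvS libraries and the lower ones beneath them. The log2 fold change was -0.30 (95% interval -0.63 to 0.031, edgeR QL test, BH-adjusted p = 0.438). The lower IvF libraries were the same replicates, C and D, that were lowest for sgk-1 and that had the most reads outside features.

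**Figure D3:**
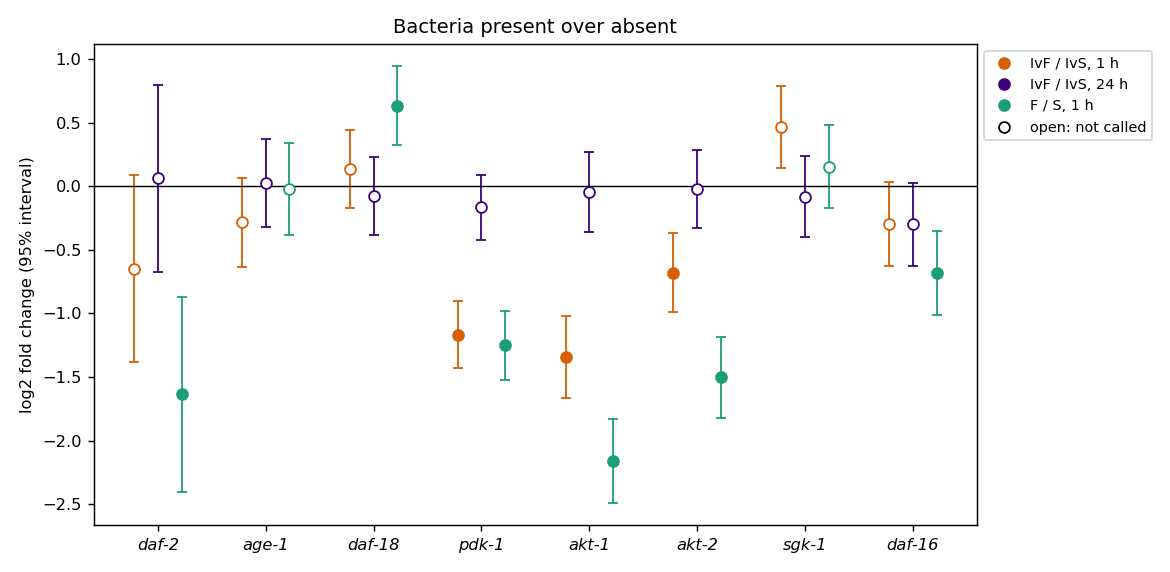
Log2 fold change with its 95% interval (vertical axis) for the 8 genes (horizontal axis) in IvF over IvS at 1 h, IvF over IvS at 24 h and F over S at 1 h. Filled points passed both thresholds. At 1 h the points for pdk-1, akt-1 and akt-2 are filled and negative with and without ivermectin, and every point at 24 h is open.

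At 24 h of exposure, none of the 3 kinase mRNAs differed between IvF and IvS beyond the spread of the libraries. pdk-1 had 60.5, 53.6, 49.0 and 55.6 CPM in IvF at 24 h, against 74.1, 57.9, 55.2 and 58.3 CPM in IvS at 24 h. akt-1 had 274, 276, 237 and 216 CPM in IvF, against 269.9, 299, 190.2 and 277 CPM in IvS, and akt-2 had 109, 104, 88.9 and 82.0 CPM in IvF, against 108, 106, 77.6 and 98.0 CPM in IvS. In all 3 genes the groups overlapped. The log2 fold changes and 95% intervals were -0.17 (-0.43 to 0.093) for pdk-1, -0.046 (-0.36 to 0.27) for akt-1 and -0.021 (-0.33 to 0.29) for akt-2.

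Of the 8 members, 0 were called at 24 h with edgeR's QL test, 0 had an unadjusted p below 0.05, and 0 were called by edgeR's exact test or DESeq2, where 0.583% of tested genes were called higher, 0.194% lower and 0.777% in either direction. No member was without overlap, against 4.87% of tested genes. The widest difference was in daf-16, with 331 ± 46.4 CPM in IvF and 407 ± 57.6 CPM in IvS (SD, n = 4 each), a log2 fold change of -0.30 (95% interval -0.63 to 0.029). The receptor gene daf-2 had the widest interval, -0.67 to 0.80 around a log2 fold change of 0.062.

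Time of exposure was compared within each arm. In larvae with ivermectin and bacteria, pdk-1 and akt-1 were higher at 24 h than at 1 h, by 0.74 (SE 0.13, BH-adjusted p = 3.02e-04) and 1.29 (SE 0.16, BH-adjusted p = 4.57e-06) on the log2 scale in edgeR's QL test. These were 2 of 8 members, where 4.20% of tested genes were called higher, 5.72% lower and 9.92% in either direction. Besides these, daf-2 with 294 to 442 CPM at 24 h against 185.2 to 274 CPM at 1 h and age-1 with 57.8 to 69.0 CPM at 24 h against 42.1 to 53.6 CPM at 1 h did not overlap but were not called. That makes 4 of 8 members higher without overlap, against 8.20% of tested genes. In a fit of only the compared libraries the log2 fold change of daf-2 was 0.84 and passed (adjusted p = 0.0136), as it did with a block for the replicate number, at 0.79 (adjusted p = 0.0106). The values of pdk-1 and akt-1 above are from the fit without this block, and their calls held with it.

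In larvae with ivermectin and no bacteria, 0 of 8 members differed between 24 h and 1 h in edgeR's QL test, 0 had an unadjusted p below 0.05 and 0 were called by DESeq2 or the exact test, where 2.07% of tested genes were called higher, 3.17% lower and 5.24% in either direction. The nearest to the threshold was pdk-1, with a log2 fold change of -0.26 (95% interval -0.52 to 0.001), and akt-1 had one of -0.005 (95% interval -0.32 to 0.31).

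Whether the food effect itself differed between 24 h and 1 h was tested as an interaction, that is, the log2 fold change of IvF over IvS at 24 h minus that at 1 h. It was 1.00 for pdk-1 (SE 0.18, BH-adjusted p = 0.00414) and 1.30 for akt-1 (SE 0.22, edgeR QL test, BH-adjusted p = 0.00188). These 2 of 8 members passed, where 0.661% of tested genes were called above 0, 0.310% below it and 0.971% in either direction. For akt-2 it was 0.66 (adjusted p = 0.198) and for sgk-1 -0.55 (adjusted p = 0.418), which did not pass. With glmTreat, the pdk-1 call was lost both here (adjusted p = 0.154) and in IvF at 24 h against 1 h (adjusted p = 0.164).

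Feeding was addressed by F against S at 1 h, without ivermectin. More members were called here than in IvF against IvS, with 5 of 8 lower and 1 higher, where 15.4% of tested genes were called lower, 13.6% higher and 29.0% in either direction. The median log2 fold change was -0.97 over the members and -0.070 over all tested genes. The kinase genes akt-1, akt-2 and pdk-1 had the differences with the smallest p, the receptor gene daf-2 and daf-16 were lower in F as well, and daf-18 was higher. Of the 6 larval tissue markers 1 was lower in F, myo-3 at 85.4 ± 36.2 CPM in F and 212 ± 179 CPM in S, and 1 was higher, elt-2 at 31.6 ± 4.53 CPM in F and 20.6 ± 5.71 CPM in S (SD, n = 4 each). Their sum was at 381 to 472 CPM in F and 418 to 1034 CPM in S, and their part in the differences of the members was not tested.

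At 1 h akt-1 was at 63.3, 72.6, 86.6 and 58.7 CPM in F, against 292, 323, 316 and 327 CPM in S. The groups were far apart, and the log2 fold change was -2.16 (SE 0.16, edgeR QL test, BH-adjusted p = 3.99e-10), or 4.47-fold lower in F. For akt-2 the values were 65.7, 68.4, 78.9 and 47.7 CPM in F, against 173, 169.7, 194 and 202 CPM in S, with a log2 fold change of -1.503 (SE 0.15, edgeR QL test, BH-adjusted p = 4.85e-08). For pdk-1 they were 27.2, 29.1, 29.97 and 21.5 CPM in F, against 58.0, 59.7, 71.1 and 67.6 CPM in S, with a log2 fold change of -1.25 (SE 0.13, edgeR QL test, BH-adjusted p = 6.15e-08). No F library of these 3 genes reached the lowest S library. The calls of all 3 held in every alternative and with any 1 library left out.

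The FoxO gene daf-16 was at 204, 220.1, 241 and 191 CPM in F, against 279.6, 372, 339.6 and 380.2 CPM in S, with no overlap, which made 4 of 8 members lower without overlap, where 13.1% of tested genes were. Its log2 fold change was -0.68 (SE 0.16, edgeR QL test, BH-adjusted p = 0.00177). The lipid phosphatase gene daf-18 was at 45.5, 63.0, 62.3 and 62.7 CPM in F, against 30.7, 37.4, 33.8 and 48.7 CPM in S, where the lowest F library lay beneath the highest S library, and its log2 fold change was 0.63 (SE 0.15, edgeR QL test, BH-adjusted p = 0.00206). Under glmTreat neither passed, with an adjusted p of 0.193 for daf-16 and 0.261 for daf-18. Together, reads of akt-1 and akt-2 per daf-18 read were 2.36 ± 0.51 in F and 13.6 ± 2.02 in S (SD, n = 4 each), which did not overlap.

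The receptor gene daf-2 had the widest spread of the 8. It was at 19.5, 39.9, 29.97 and 43.2 CPM in F, against 26.2, 96.3, 75.7 and 214 CPM in S. The lowest S library lay among the F libraries and the highest was well above the other S libraries. The log2 fold change was -1.64 (SE 0.37, edgeR QL test, BH-adjusted p = 0.00134), it was -0.97 without S replicate 4 (adjusted p = 0.0129), and in a fit of only the F and S libraries the adjusted p was 0.0639. Among the S libraries, in the same order, reads shared by several genes were 10.2%, 8.50%, 10.2% and 6.88% and the TMM factors 0.747, 0.912, 0.620 and 0.920, and their part in the daf-2 level was not tested.

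Neither age-1 nor sgk-1 was called in F against S. age-1 had 20.8 to 30.4 CPM in F and 15.8 to 34.6 CPM in S, a log2 fold change of -0.020 (95% interval -0.38 to 0.34). sgk-1 had 36.5 to 46.8 CPM in F and 28.1 to 45.4 CPM in S, a log2 fold change of 0.16 (95% interval -0.17 to 0.48). For both genes the groups overlapped.

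The food effects with and without ivermectin at 1 h share no library, and their difference was tested as a second interaction, the log2 fold change of IvF over IvS minus that of F over S. It was 0.82 for akt-1 (SE 0.22, BH-adjusted p = 0.0145) and 0.82 for akt-2 (SE 0.21, edgeR QL test, BH-adjusted p = 0.0125), so that the fall of both was smaller with ivermectin. These were 2 of 8 members, where 5.02% of tested genes were called above 0, 5.31% below it and 10.3% in either direction. For pdk-1 the difference was 0.085 (95% interval -0.29 to 0.46). For daf-2 it was 0.99 (adjusted p = 0.264) and for daf-18 -0.50 (adjusted p = 0.155). Over 16 fits with 1 library left out, the daf-2 value ran from 0.33 to 1.32 (edgeR QL test, adjusted p 0.0242 to 0.694). It passed in 1 of them, without S replicate 1, at 1.32. The daf-18 value ran from -0.66 to -0.41 over such fits (edgeR QL test, adjusted p 0.0223 to 0.270). It passed in 1, without S replicate 4, at -0.66. Neither gene passed in any of 9 alternatives. The calls of akt-1 and akt-2 were lost under glmTreat (adjusted p = 0.256 and 0.243) and with library totals in place of TMM, an alternative added after seeing the data, at an adjusted p of 0.0708 and 0.0641 and values of 0.68 and 0.67.

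Levels with and without ivermectin were compared at the same time and food. With bacteria, 4 of 8 members were higher in IvF than in F at 1 h and 0 were lower, where 33.1% of tested genes were called higher, 27.7% lower and 60.8% in either direction. In either direction 50% of the members were called, under the share of all tested genes. The receptor gene daf-2 had 212 ± 41.6 CPM in IvF and 33.2 ± 10.7 CPM in F (SD, n = 4 each), a log2 fold change of 2.68 (SE 0.38, edgeR QL test, BH-adjusted p = 2.78e-06). For age-1 these were 47.3 ± 4.75 CPM in IvF and 24.7 ± 4.35 CPM in F, a log2 fold change of 0.94 (SE 0.17, BH-adjusted p = 6.12e-05). daf-16 and akt-1 were higher by 0.57 and 0.55, and both calls rested near the threshold, with 0.480 for daf-16 without IvF replicate A, and 0.498 and 0.482 for akt-1 without F replicate 1 or IvF replicate B. Both were also lost under glmTreat (adjusted p = 0.225 and 0.267). With library totals pdk-1 and sgk-1 were called higher as well, at 0.58 and 0.50, and each passed in 1 more alternative, pdk-1 with only genes averaging 5 CPM (0.55) and sgk-1 with a covariate for the percent of reads outside features (0.51). The median of all tested genes was at 0.13 in this comparison.

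Without bacteria, daf-2 had 333 ± 26.4 CPM in IvS and 103 ± 79.8 CPM in S at 1 h (SD, n = 4 each), a log2 fold change of 1.69 (SE 0.37, edgeR QL test, BH-adjusted p = 4.09e-04). age-1 had 57.6 ± 5.50 CPM in IvS and 25.1 ± 8.17 CPM in S, a log2 fold change of 1.201 (SE 0.17, BH-adjusted p = 3.03e-06), and akt-2 fell to 117 ± 8.60 CPM in IvS, against 184.7 ± 15.7 CPM in S, by 0.66 on the log2 scale. So 2 of 8 members were higher and 1 lower, where 28.2% of tested genes were called higher, 29.1% lower and 57.3% in either direction. Here too the share of members called, 37.5%, was under that of all tested genes. The phosphatase gene daf-18, with a log2 fold change of 0.43 (adjusted p = 0.0163), was short of the fold threshold but was called higher in 7 of 9 alternatives, at 0.50 to 0.85, and without S replicate 4 (0.65) or IvS replicate B (0.51). The akt-2 call was lost under glmTreat (adjusted p = 0.0987) and with only genes averaging 5 CPM, at -0.47, and daf-16 was called higher with the covariate for reads outside features, at 0.51. With library totals in place of TMM, where the median of all genes in this comparison was 0.49 instead of 0.044, akt-2 was at -0.21 and not called, and pdk-1 and daf-16 were called higher at 0.65 and 0.61. Ivermectin and the set of libraries cannot be told apart, and the summed larval tissue markers were at 3145 to 3965 CPM in IvS and 418 to 1034 CPM in S at 1 h. By group means myo-2 was the largest part of this sum. Of the 6 markers 4 were called higher in IvS and 1 lower.

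**Figure D4:**
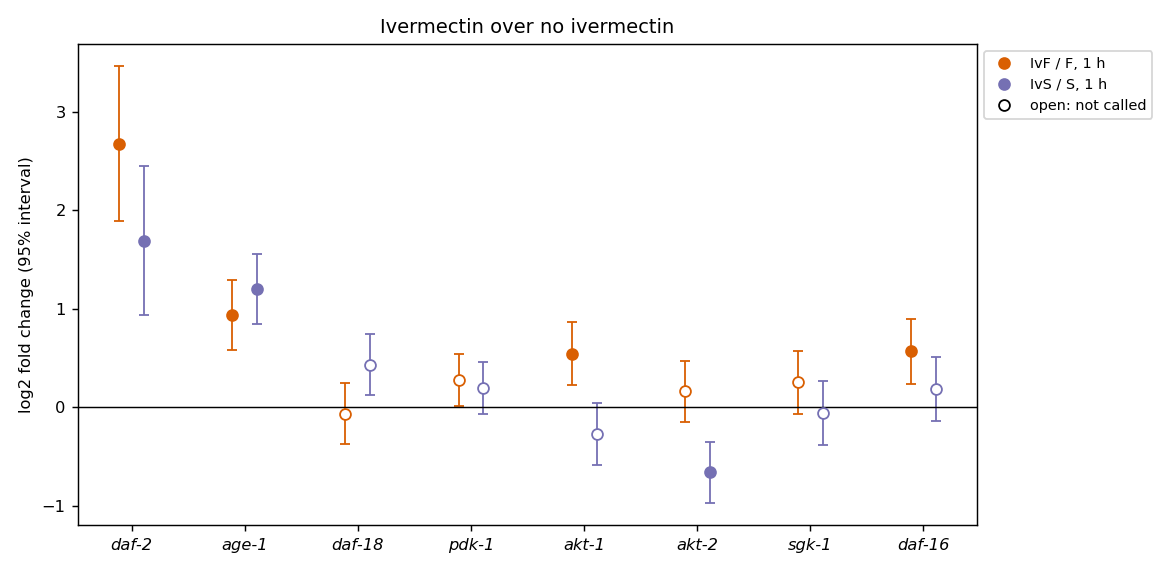
Log2 fold change with its 95% interval (vertical axis) for the 8 genes (horizontal axis) in IvF over F and in IvS over S at 1 h. Filled points passed both thresholds. daf-2 at 2.68 and 1.69 and age-1 at 0.94 and 1.20 are higher with ivermectin in both comparisons, which cannot be told apart from a difference between the 2 sets of libraries.

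Beyond the core, 11 genes of adaptors and of regulators of PDK-1, AKT and SGK-1 were read as a list. In IvF against IvS at 1 h, 0 of 11 were higher and 1 was lower, where 3.27% of tested genes were called higher and 2.29% lower. The lower gene was ist-1, which encodes the insulin receptor substrate ortholog of the worm. It had 42.3 ± 8.27 CPM in IvF and 96.1 ± 9.07 CPM in IvS (SD, n = 4 each), a log2 fold change of -1.18 (edgeR QL test, BH-adjusted p = 6.05e-04), and the list's median was -0.22. In F against S, where 13.6% of tested genes were called higher and 15.4% lower, 0 of 11 were higher and 4 lower, with eak-4 at -2.27, ist-1 at -1.80, eak-3 at -1.72 and sdf-9 at -1.26. The eak genes are named as enhancers of akt-1. The fall of eak-3 and eak-4 was smaller with ivermectin, by 1.25 and 2.05 on the log2 scale (edgeR QL test, BH-adjusted p = 0.00419 and 3.11e-06). These were 2 of 11, where 5.02% of tested genes were called above 0 and 5.31% below it. Their levels without bacteria also differed at 1 h, with eak-3 at 3.66 ± 0.687 CPM in IvS and 16.6 ± 3.28 CPM in S. eak-4 was at 9.57 ± 0.514 CPM in IvS and 23.2 ± 4.05 CPM in S (SD, n = 4 each). In IvF at 24 h against 1 h, ist-1 was higher by 1.26 and was the 1 member of the list that was called. There 4.20% of tested genes were called higher and 5.72% lower.

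Among 12 regulators and cofactors of DAF-16, 0 were called in IvF against IvS at 1 h with edgeR's QL test, where 5.56% of tested genes were called. Of these 12, 2 had an unadjusted p below 0.05. In F against S 1 was higher and 0 lower, or 8.33% of the list, where 13.6% of tested genes were called higher and 15.4% lower. The list's share was thus under that of all tested genes. The 1 higher gene was hcf-1, which encodes a nuclear factor that restrains DAF-16, with a log2 fold change of 0.90. The 14-3-3 genes ftt-2 and par-5, whose proteins bind phosphorylated DAF-16, had log2 fold changes of -0.38 and 0.063 in IvF over IvS at 1 h and -0.19 and 0.058 in F over S. None of these 4 values was called.

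Downstream of the core, 12 genes known to be activated by DAF-16 and 7 known to be repressed by it were followed. Of the activated genes, 3 of 12 were lower and 2 higher in IvF than in IvS at 1 h, where 2.29% of tested genes were called lower and 3.27% higher. The metallothionein gene mtl-1 was at 16.5 ± 3.41 CPM in IvF and 50.4 ± 5.49 CPM in IvS (SD, n = 4 each), a log2 fold change of -1.61 (edgeR QL test, BH-adjusted p = 5.42e-05). dod-3 was lower with a log2 fold change of -1.83, and nnt-1, which encodes nicotinamide nucleotide transhydrogenase, with one of -1.15. The nnt-1 call was lost under glmTreat (adjusted p = 0.1325). The small heat shock protein genes hsp-16.2 and sip-1 were higher by 1.72 and 0.73. The sip-1 call was lost in 6 of 8 fits with 1 library left out. sod-3, the manganese superoxide dismutase gene often used as a DAF-16 reporter, was at 2.48 ± 0.937 CPM in IvF and 5.22 ± 1.65 CPM in IvS, without overlap and with a log2 fold change of -1.06 that was not called (adjusted p = 0.0557). The sod-3 difference passed in 4 of 9 alternatives, edgeR's exact test, DESeq2, the covariate for reads outside features and the replicate block, and in 2 of 8 fits with 1 library left out, and its adjusted p ran from 0.0124 to 0.345 over the alternatives.

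In F against S at 1 h, 6 of the 12 activated genes were lower and 2 higher, where 15.4% of tested genes were called lower and 13.6% higher, and the list's median log2 fold change was -1.65. The lower genes with the largest differences were hsp-12.6 at -4.07, mtl-1 at -3.87, dod-3 at -3.43 and icl-1, which encodes the glyoxylate cycle enzymes, at -2.98. For hsp-12.6 the value was -1.36 without S replicate 4, the S library in which it was highest, and S ranged from 5.30 to 142 CPM. Its call was lost in a fit of only the F and S libraries, at -4.06 (edgeR QL test, adjusted p = 0.0603). For icl-1 the groups overlapped, with 92.1 to 128 CPM in F and 58.0 to 1360 CPM in S, and its call held with any 1 library left out. Of the repressed genes, 6 of 7 could be tested. In IvF against IvS at 1 h 1 was higher and 0 lower, dod-19 at 1.102 (edgeR QL test, BH-adjusted p = 0.00107), and in F against S 5 of 6 were higher and 0 lower, beside the same shares of tested genes. dod-19 was at 1.91 and dod-24 at 1.65. dod-21 had 3 to 26 reads in an F library and 0 to 2 in an S library, and dod-20 had 6 to 15 reads in F and 1 to 3 in S, too few to give a fold. The dod-20 call was lost in 4 of 8 fits with 1 library left out. At 24 h, 0 of the 12 activated and 0 of the 6 repressed genes were called in IvF against IvS, with 1 of each list at an unadjusted p below 0.05. Of all tested genes 0.777% were called there in either direction.

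The interaction with time was called for mtl-1 at 1.59 (edgeR QL test, BH-adjusted p = 0.00734) among these genes. It was 1 of the 12 activated genes, where 0.661% of tested genes were called above 0 and 0.310% below it. The food effect differed with ivermectin for mtl-1, dod-3, icl-1 and nnt-1, at 2.26, 1.60, 2.81 and 1.79, each a smaller fall with ivermectin. These were 4 of the 12 activated genes, where 5.02% of tested genes were called above 0 and 5.31% below it. For icl-1 the level in IvF at 1 h was 2233 ± 973 CPM and that in IvS 2516 ± 449 CPM, against 109.6 ± 14.7 CPM in F and 864 ± 582 CPM in S.

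**Figure D5:**
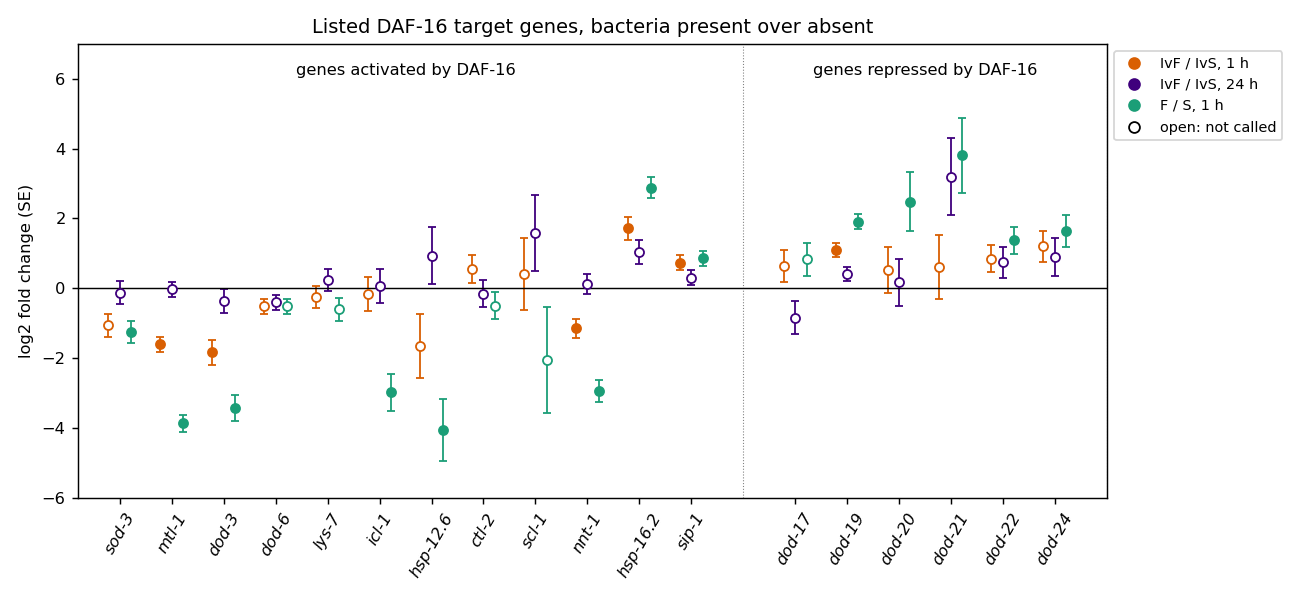
Log2 fold change with its SE (vertical axis) for 12 listed genes activated by DAF-16 and 6 tested genes repressed by it (horizontal axis) in IvF over IvS at 1 h, IvF over IvS at 24 h and F over S at 1 h. Filled points passed both thresholds. In F over S 6 activated genes are filled below 0 and 5 repressed genes above it, and no point at 24 h is filled. The points of dod-20 and dod-21 in F over S rest on at most 3 reads in an S library.

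Across the 24 libraries, the genes whose log2(CPM + 1) followed each member most closely were sought among 9113 genes averaging 10 CPM or more. The gene nearest to pdk-1 was akt-1, with a Pearson r of 0.95, and next came aakg-4, a gene of an AMP-activated kinase subunit, with 0.94. aakg-4 was also nearest to akt-1, with 0.97, and the linker histone gene hil-1 followed with 0.97. The genes nearest to akt-2 were rskn-2 (0.97) and mboa-1 (0.96), those to daf-2 xpo-1 (0.99) and wdr-62 (0.99), and those to age-1 bltp-2 (0.99) and rbm-5 (0.98). For daf-16 they were nfki-1 (0.95) and fkh-9 (0.94), and for daf-18 K02C4.3 (0.93) and sna-3 (0.93). sgk-1 had the weakest neighbors, cec-5 (0.79) and T20F10.2 (0.78).

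The libraries share the difference between the sets with and without ivermectin, and so do these correlations. Among the 16 libraries with ivermectin, pdk-1 and akt-2 had an r of 0.89, pdk-1 and akt-1 0.90 and akt-1 and akt-2 0.86, and among the 8 without it these were 1.00, 0.99 and 0.99. For daf-2 and age-1 r was 0.95 over 16 libraries with ivermectin and 0.73 over the 8 without it. sgk-1 and pdk-1 went opposite ways, with -0.69 over the 16 and -0.42 over the 8. These values include the differences between conditions. Within conditions r was 0.54 for pdk-1 and akt-1, 0.80 for pdk-1 and akt-2, 0.87 for akt-1 and akt-2 and -0.30 for sgk-1 and pdk-1. These are descriptions over libraries of the same conditions and carry no test.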

How the data were processed

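mRNA-seq counts of L1 larvae of strain LRB269 were analysed in 24 libraries. The deposited counts are whole reads per gene, which the authors made with Bowtie 1.1.2 on WS210 coordinates, with WS220 transcripts, and HTSeq, without normalization. The HTSeq mode and the handling of reads with several positions are not given in the sources used here. The 5 HTSeq totals at the end of each file name no gene and stayed out of library sizes and tests. Reads outside features were 2.67% to 11.3% and reads shared by genes 2.97% to 10.2% of the aligned reads. Of 44968 identifiers, 43625 were named in the WBcel235 annotation, from which symbols, exon lengths and isoform numbers come, and no positions are given because the builds differ.

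Libraries were grouped by their labels. Genes with more than 1 CPM in at least 4 libraries were kept (19050). Counts were scaled by TMM and fitted with edgeR 4.0.16 in R 4.3.3 (robust quasi-likelihood test) as 6 group means over all 24 libraries, for 7 comparisons and 2 interactions, with p adjusted by the BH method over all tested genes and cutoffs of 0.05 for the adjusted p and 0.5 for the absolute log2 fold change. The same tool gave log2 fold changes and their SE. The study's methods used edgeR's exact test, which is among the alternatives. Depth was 8690378 to 19448998 reads on genes, and the members had 161 to 8764 reads in a library, so that between-library spread and not counting sets their error. No 2 libraries were identical.

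Alternatives were edgeR's exact test, DESeq2 1.42.0, edgeR with the size factors of DESeq2, all genes unfiltered, only genes averaging 5 CPM, a covariate for the percent of reads outside features, a fit of only the compared libraries, glmTreat, a block for the replicate number, and each library left out in turn. For IvF at 24 h against 1 h all 4 same-numbered pairs correlated in their deviations from the group means, at 0.133 to 0.784, so that there the numbers were taken as a pairing, from the data and not from the labels. The main values of that comparison are nevertheless from the fit without a block, and the fit with the block is given as an alternative. Library totals without TMM were added after seeing the data. The fit was tested on simulated counts for IvF against IvS at 1 h over 19050 genes. Counts were drawn with the spread estimated by the fit and 1 mean per gene for all conditions, apart from the changed genes in IvF. All changed genes averaged 5 CPM or more. Of these, 84 of 100 changed by 1 and 98 of 100 changed by 1.5 on the log2 scale were recovered, with 7 false calls. Changed genes at lower levels and differences between the other conditions were not simulated. The 8 genes and all lists were chosen with earlier results of these data known. Named genes are the 8 members and, per list and comparison, up to 4 called genes with the largest change. The 14-3-3 genes, sod-3 and single interactions were named after their values were seen.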

Additional observations from a re-analysis of the deposited data

Results flagged for a closer look

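In 3 of the 48 sets of 4 libraries (8 genes in 6 conditions) 1 library lay far from the other 3, with a gap to its nearest neighbor beyond Dixon's critical value at 95%. Chance gives such a gap in about 1 of 20 sets. In IvF at 1 h, daf-2 was at 274 CPM in replicate B and at 185.2 to 198 CPM in the others. In F, daf-18 was at 45.5 CPM in replicate 1 and at 62.3 to 63.0 CPM in the others. In IvS at 24 h, pdk-1 was at 74.1 CPM in replicate A and at 55.2 to 58.3 CPM in the others.

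The effect of bacteria differed between groups for 3 genes in edgeR's quasi-likelihood test of the difference. Between 24 h and 1 h with ivermectin, the log2 fold change of IvF over IvS differed by 1.00 for pdk-1 (BH-adjusted p = 0.00414) and by 1.30 for akt-1 (BH-adjusted p = 0.00188). Between larvae with and without ivermectin at 1 h, the log2 fold change of bacteria over none differed by 0.82 for akt-1 (BH-adjusted p = 0.0145) and by 0.82 for akt-2 (BH-adjusted p = 0.0125).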

How the results depend on the processing

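Of 688 member values under other settings, 656 kept their side of the thresholds and 0 changed sign with a call. With 1 library left out, 696 of 704 did and 0 changed sign with a call. The count of members called moved by over 1.5 times in 7 cases. Under glmTreat it was 1 in place of 2 for IvF at 24 h against 1 h, 2 in place of 4 for IvF against F, 1 in place of 2 for the interaction with time and 0 in place of 2 for that with ivermectin. In IvS against S it was 5 in place of 3 with a covariate for the percent of reads outside features and 5 in place of 3 with library totals, and for the interaction with ivermectin it was 0 in place of 2 with library totals. The cause was not tested. With 1 library left out, the counts ran from 3 to 4 for IvF against IvS at 1 h, 3 to 4 for IvF against F, 3 to 4 for IvS against S and 2 to 3 for the interaction with ivermectin. They were 6 for F against S, 2 for IvF at 24 h against 1 h, 2 for the interaction with time, and 0 for IvF against IvS at 24 h and IvS at 24 h against 1 h.

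Same-numbered libraries correlated in their deviations from the group means at -0.499 to 0.784 over 20 pairs, 11 of them over 0.1 and 11 best with their own number, and outside IvF at 24 h against 1 h they were not taken as a pairing because some pairs were under 0.1. With a replicate block, the count of members called was 3 in IvF against IvS at 1 h, 0 at 24 h, 6 in F against S 0 in IvS at 24 h against 1 h and 2 for each interaction. In IvF at 24 h against 1 h it was 3, with daf-2 called at 0.79 (adjusted p = 0.0106). No paired analysis was possible for IvF against F and IvS against S because they share no replicate number. The exact test was not run for the interactions. Depth limits the members little, with at least 161 reads each in every library. It leaves the listed genes with a mean under 1 CPM in at least 4 of 6 conditions poorly measured. These are dod-20, dod-21, dod-23, scl-1, end-1, end-3, med-1 and tbx-35.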
